A study of Mus musculus with 32 samples.

Results

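The effect of losing Ppara was measured in sorted intestinal stem cells of the mouse by setting the 16 Ppara-null libraries against the 16 Ppara-intact libraries, which together are all 32 libraries of the series. The Ppara-null arm holds the genotypes PparA (Ppara-null) and PparDA (Ppard-fl/fl; Ppara-null), and the Ppara-intact arm holds WT (wild type) and PparD (Ppard-fl/fl). Each genotype was fed a high-fat or a control diet, with 4 libraries per genotype and diet, and every mouse carries the strain label C57BL6. The 2 arms therefore have the same mixture of Ppard states and diets, and the comparison averages over them. GFP-high crypt cells were gated on the epithelial surface protein CD326 and on DAPI, a dye that marks dead cells, and their polyadenylated RNA was counted near its 3′ end. The series' design text calls the Ppard and Ppara genotypes knockouts; the sources used here do not give what drives the GFP, the recombination of floxed Ppard, the ages, or for how long the diets were fed. Nothing states that the 4 libraries of a group came from separate animals, so each p-value measures the spread between libraries.

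PPARα, the product of Ppara, is a nuclear receptor that fatty acids activate. It binds DNA together with RXR at paired copies of the motif AGGTCA separated by a single base, and in liver and gut it raises genes for fatty acid uptake, mitochondrial and peroxisomal beta-oxidation and ketone body synthesis. The related receptor PPARδ, the product of Ppard, binds the same kind of site. In the small intestine stem cells sit at the base of the crypt, and their daughters become absorptive enterocytes or secretory Paneth, goblet, enteroendocrine and tuft cells.

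Library totals ran from 612672 to 695583 counts in Ppara-null libraries and from 629464 to 724155 in Ppara-intact libraries, and 5872 genes had enough counts to be tested. By library number there were 4 runs with 8 libraries each, 1 per group, and the Ppara-null libraries always took the later places of a run, so place in the run and Ppara state cannot be told apart. Runs 1 and 3 had 308 to 635 counts of the X-linked Xist per library and none of the Y-linked Ddx3y, and runs 2 and 4 had 0 to 6 counts of Xist and 10 to 26 of Ddx3y. The stem cell markers Olfm4 and Lgr5 were detected in every library, at no less than 7270 and 28.8 CPM. Markers of leukocytes summed to 5.97 to 108 counts per 1000000 scaled counts (CPM) in Ppara-null and 5.83 to 21.5 CPM in Ppara-intact libraries. Of 19 stromal and endothelial markers 13 had no count anywhere. Fewer cells of a type and less RNA per cell cannot be told apart in such sorted bulk samples.

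The deleted gene could not check the labels at this depth. Ppara (ENSMUSG00000022383, chr15:85734983-85802819, GRCm38) had 24 counts over the Ppara-null libraries and 43 over the Ppara-intact libraries, with at most 5 in any library, and Ppard had 61 over the Ppara-null and 47 over the Ppara-intact libraries. The deposited values also do not say which part of Ppara was removed, so 3′ counts that remain do not check the deletion. A different split did appear. The 4 PparA libraries of runs 1 and 3 (2 per diet) had Ppara-intact levels of several genes that set the other 12 Ppara-null libraries apart, while they lay with those 12 at some genes close to Ppara, Cyb5r3 and Apobec3 among them. Counts, list counts that they moved by more than 1.5 times, and named genes whose call turned on them are given with and without these libraries. The 4 were picked after such levels were seen, so larger differences without them are in part fixed by that choice.

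Over all 32 libraries 501 genes differed between Ppara-null and Ppara-intact cells (edgeR quasi-likelihood test with Benjamini-Hochberg adjustment, adjusted p under 0.05), which is 8.53% of the tested genes. Of these 281 (4.79%) were higher and 220 (3.75%) were lower in Ppara-null cells. The median size of a called log2 fold change was 0.591, and 105 genes were called with a rise above 1 and 30 with a fall beyond -1 on the log2 scale. Among called genes 457 (91.2%) had the same sign in PparA against WT and in PparDA against PparD on each diet, compared with 22% of all tested genes; the calls rest on the average of these 4 differences, so that share is in part fixed by the choice of genes. Scaling by library size alone gave 531 called genes, of which 45.6% were higher, against 56.1% in the fit reported here, and limma on the deposited log2 values gave 40.6% higher of 517. Without the 4 PparA libraries of runs 1 and 3, 697 of 6404 genes (10.9%) were called, 453 of them among the 501.

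Genes on the chromosome that carries Ppara separated the arms most cleanly. Cyb5r3, which encodes a membrane-bound NADH-cytochrome b5 reductase, lies at chr15:83153494-83172592 and had 231, 302 and 365 CPM (lowest, median and highest) in Ppara-null libraries, against 64.6, 81.0 and 103 CPM in Ppara-intact libraries. Every Ppara-null library exceeded every Ppara-intact library, and the log2 fold change was 1.89 ± 0.068 (SE; edgeR adjusted p = 4.8e-20). Apobec3 (chr15:79891659-79915906), a cytidine deaminase that restricts retroviruses, had 18.3, 35.4 and 53.0 CPM in Ppara-null libraries and 102, 133 and 269 CPM in Ppara-intact libraries. Its arms did not overlap either, with a log2 fold change of -1.97 ± 0.14 (edgeR adjusted p = 1.3e-12). Only 1 further gene, the pseudogene Rpl3-ps1, had arms that did not overlap, so that 2 genes (0.0341%) lay wholly above and 1 (0.017%) wholly below.

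Serhl, a serine hydrolase-like gene at chr15:83089506-83116674, fell by 1.23 ± 0.13 on the log2 scale in Ppara-null cells, and 15 of the 16 Ppara-null libraries were below the lowest Ppara-intact library. Lgals2, which encodes a galectin of the gut epithelium, fell by 0.41 ± 0.049, and Tomm22, a receptor subunit of the mitochondrial import channel, fell by 0.60 ± 0.079. For each of these 2 genes 10 Ppara-null libraries lay under all Ppara-intact libraries and none reached the Ppara-intact median. Arhgap8, a GTPase-activating gene, was higher by 0.81 ± 0.15, with 12 Ppara-null libraries above the highest Ppara-intact library (edgeR adjusted p = 3.9e-04, the highest of these 4 genes). The 4 PparA libraries of runs 1 and 3 lay with the other Ppara-null libraries at these genes, with 245 to 305 CPM of Cyb5r3 and 37.9 to 53.0 CPM of Apobec3.

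**Figure D1:**
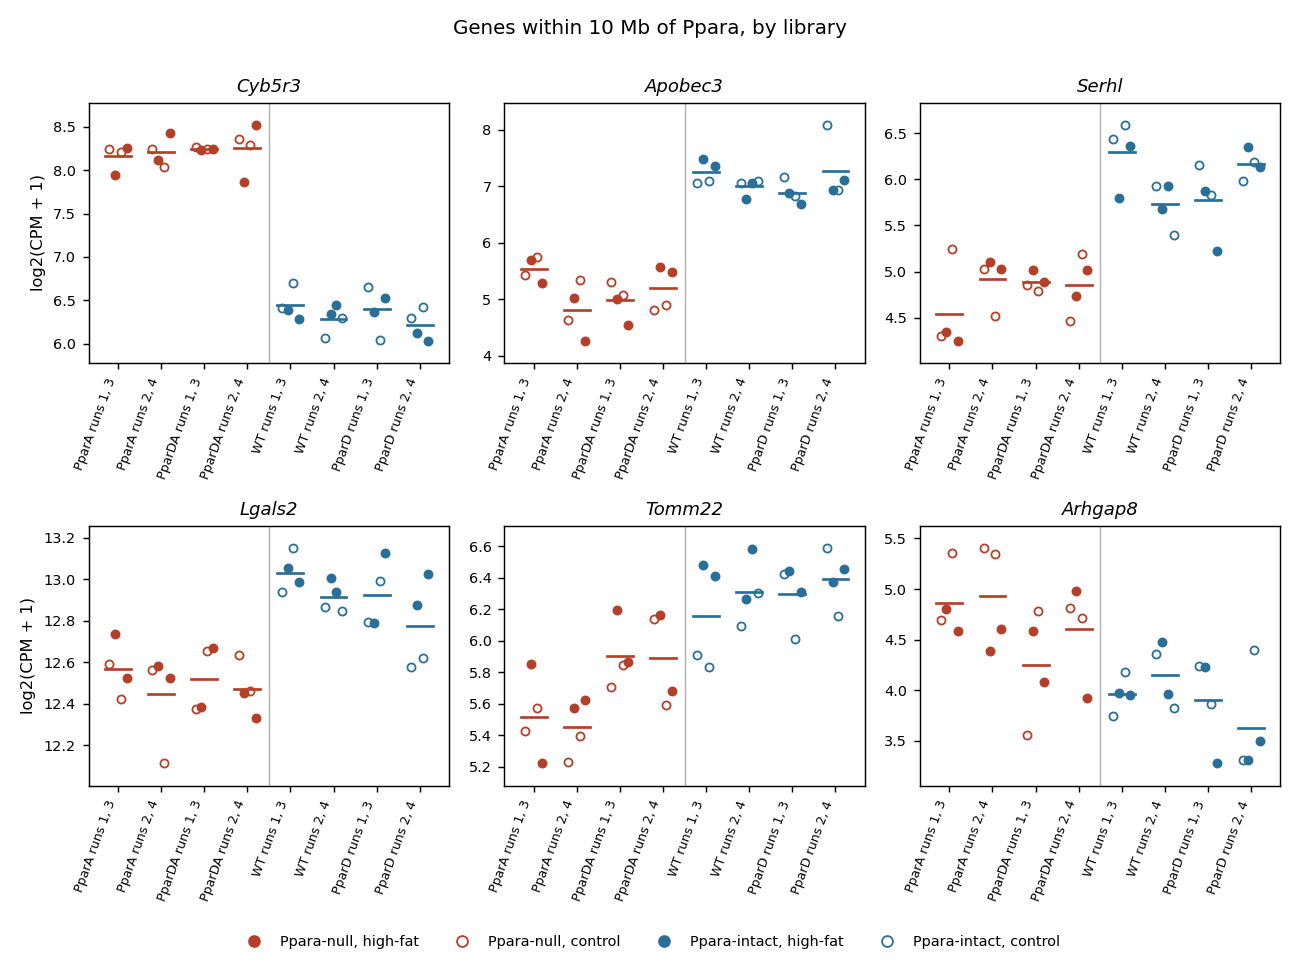
Level of 6 genes within 10 Mb of Ppara, as log2(CPM + 1), in each of the 32 libraries, by genotype and pair of runs, with Ppara-null groups left of the grey line and Ppara-intact groups right of it. Filled circles are high-fat and open circles control libraries, and bars are means of 4 libraries; for Cyb5r3 and Apobec3 the 16 libraries of the arms do not overlap in any run.

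Of 218 tested genes on chromosome 15, 40 (18.3%) were called, 20 in each direction, against 461 of 5654 genes (8.15%) on other chromosomes. The calls were not gathered around Ppara alone. Within 10 Mb of Ppara 17 of 85 genes (20%) were called, 8 higher and 9 lower, and beyond 20 Mb on the same chromosome 18 of 74 (24.3%) were called. Among other genes within 10 Mb, Twf1 and Cpne8 were lower and Rpl3 was higher, by 0.16 ± 0.04. Not all 17 separated the 4 PparA libraries of runs 1 and 3 from the Ppara-intact arm. Dgat1 had 12.4 to 22.5 CPM in those 4 and 8.91 to 26.4 CPM in Ppara-intact libraries, Gpt had 1.65 to 5.97 CPM in the 4 and 1.46 to 10.4 CPM in Ppara-intact libraries, and Cyp2d26 had 1.55 to 4.95 CPM in the 4 and 2.9 to 10.3 CPM in Ppara-intact libraries. For PparA against WT in runs 1 and 3, 14 of the 17 had the sign of the whole comparison. Reads of Rpl3 and Rpl3-ps1 may be split between near-identical copies; summed, the pair had 4706 to 6372 CPM in Ppara-null and 4247 to 5621 CPM in Ppara-intact libraries.

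**Figure D2:**
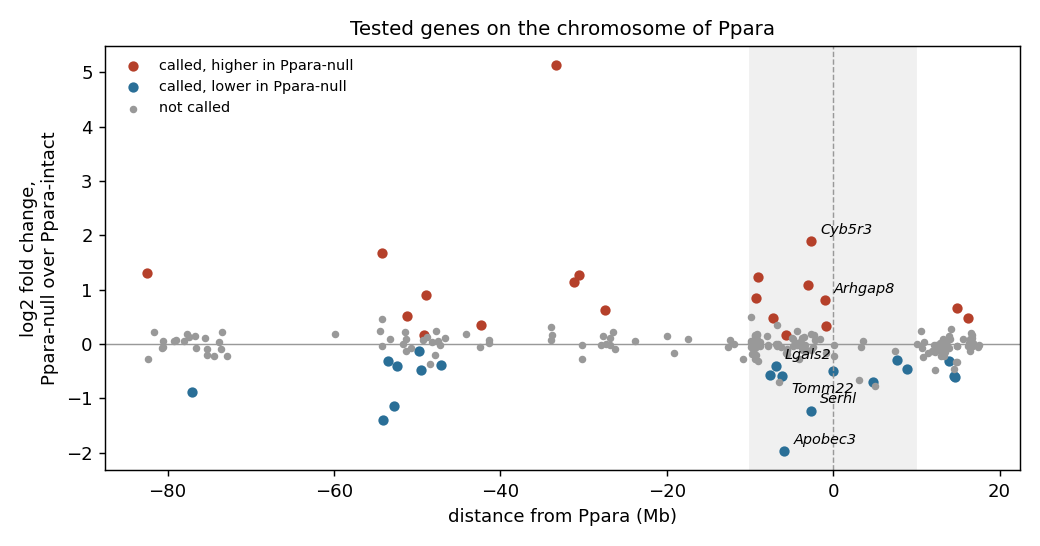
Log2 fold change of each of the 218 tested genes on chromosome 15 (Ppara-null over Ppara-intact, 16 libraries each) against the distance of the gene's midpoint from Ppara in Mb. Coloured points are the 40 called genes and the grey band marks 10 Mb on either side; called genes also lie far from Ppara.

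Genes of fatty acid oxidation, the pathway PPARα is best known for, differed little in their median fold change. Of 19 tested members of the mitochondrial list 3 fell, beside 3.75% of all tested genes called lower, and none rose. The list's median log2 fold change was -0.03, and that of all tested genes was -0.00148. Summed over the list, untested members included, Ppara-null libraries had 2769 to 4535 CPM with a median of 3412 CPM. Ppara-intact libraries had 2731 to 4345 CPM with a median of 3697 CPM, and 1 Ppara-null library exceeded that median. Acadvl, the very-long-chain acyl-CoA dehydrogenase that starts beta-oxidation of long chains, had 52.4, 73.0 and 124 CPM in Ppara-null libraries, against 68.4, 125 and 192 CPM in Ppara-intact libraries. No Ppara-null library reached the Ppara-intact median although the ranges overlapped, and the log2 fold change was -0.64 ± 0.12 (edgeR adjusted p = 3.8e-04). Slc25a20, the carnitine-acylcarnitine carrier of the inner mitochondrial membrane, fell by 0.57 ± 0.15, and Eci2, an enoyl-CoA isomerase for unsaturated chains, fell by 0.47 ± 0.15. The call for Eci2 was lost when any of 20 libraries was left out, with a log2 fold change between -0.54 and -0.40 in those fits.

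The other members of that list did not pass the test. Cpt1a, the gatekeeper of fatty acid entry into mitochondria, differed by -0.13 ± 0.18, Hadhb, a subunit of the trifunctional enzyme, by -0.20 ± 0.098, and Acaa2, the last thiolase of the cycle, by 0.02 ± 0.088. Hadhb was called lower without the 4 PparA libraries of runs 1 and 3 (-0.33, edgeR adjusted p = 0.0075), which made 4 of the 19 called lower beside 4.67% of all tested genes, with a list median of -0.08. The dehydrogenases Acadl and Acadm differed by 0.26 ± 0.19 and -0.02 ± 0.082. Of 13 peroxisomal members 2 were called lower, beside 3.75% of all tested genes. Hsd17b4, the peroxisomal bifunctional enzyme, fell by 0.34 ± 0.080, and Cat, which encodes catalase, fell by 0.31 ± 0.088. Ehhadh, a peroxisomal bifunctional enzyme and classical PPARα target, differed by 0.05 ± 0.14 and was not called. Of 6 ketone body genes 0 were called by edgeR, by DESeq2 or by limma, with 1 at an unadjusted edgeR p under 0.05. Summed ketone body genes had overlapping ranges, with medians of 1344 CPM in Ppara-null and 1622 CPM in Ppara-intact libraries. Of the Ppara-null libraries 2 exceeded the Ppara-intact median.

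Among 15 tested PPAR targets outside beta-oxidation, 1 rose and 1 fell, beside 4.79% of all tested genes called higher and 3.75% called lower. Without the 4 PparA libraries of runs 1 and 3, 2 rose and 1 fell, beside 6.21% and 4.67%. Acsl5, an acyl-CoA synthetase abundant in the gut, had 19.6, 37.8 and 115 CPM in Ppara-null libraries and 16.7, 25.7 and 44.9 CPM in Ppara-intact libraries, a rise of 0.73 ± 0.19. Plin2, a lipid droplet coat protein, fell by 0.27 ± 0.082 (edgeR adjusted p = 0.034), a call that was lost when any of 18 libraries was left out (log2 fold change -0.32 to -0.24). The lipase inhibitor Angptl4, the thioredoxin-binding Txnip and the fatty acid carrier Fabp1 differed by -0.24 ± 0.30, -0.55 ± 0.20 and 0.57 ± 0.32 and did not pass. Fabp1 was called higher without the 4 PparA libraries of runs 1 and 3 (0.96, edgeR adjusted p = 0.0162). Pdk4 and Cyp4a10, both standard read-outs of PPARα, had 10 and 6 counts in all over the Ppara-null libraries and 22 and 10 over the Ppara-intact libraries, too few to be tested.

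**Figure D3:**
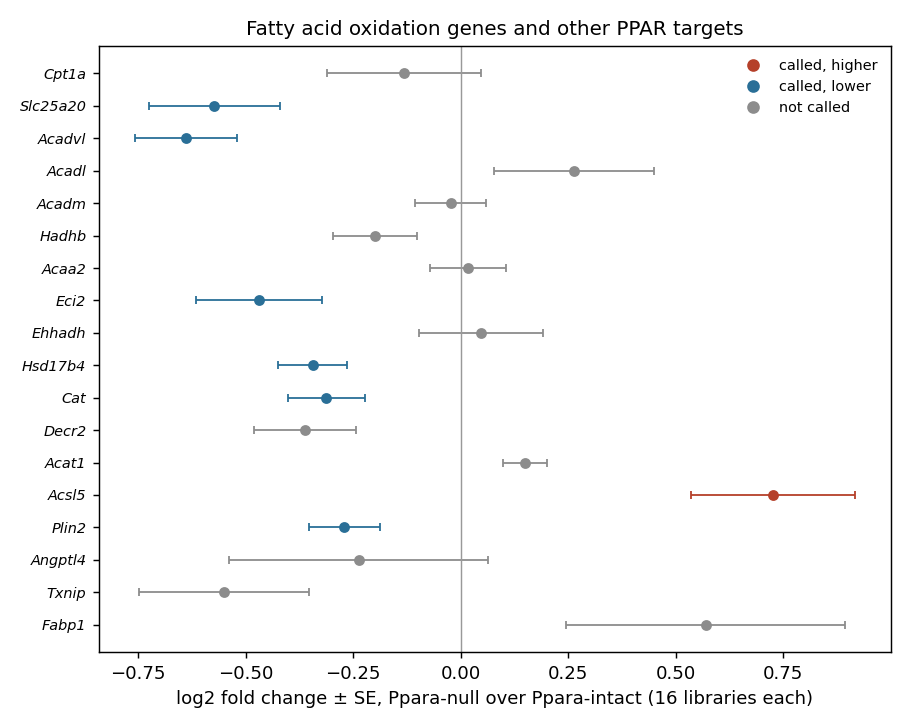
Log2 fold change (Ppara-null over Ppara-intact, 16 libraries each) with its standard error for 18 genes of fatty acid oxidation, ketone body metabolism and other PPAR targets. Blue points are called lower, the red point is called higher and grey points are not called; most of these genes lie near 0, and Acadvl is the lowest at -0.64.

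The oxidation genes were then compared within each Ppard state. For PparDA against PparD the mitochondrial list's median was -0.14 in runs 1 and 3 and -0.25 in runs 2 and 4. For PparA against WT it was 0.11 in runs 1 and 3 and 0.01 in runs 2 and 4. In Ppard-fl/fl libraries Acadvl had a log2 fold change of -1.0 ± 0.11 (edgeR adjusted p = 6.0e-06), Slc25a20 of -0.82 ± 0.14 and Eci2 of -0.85 ± 0.14, where 2.76% of all tested genes were called lower. In Ppard-intact libraries Acadvl had -0.27 ± 0.15, Slc25a20 -0.26 ± 0.26 and Eci2 -0.08 ± 0.19, none of them called, beside 0.647% of all tested genes called lower. The test of the difference between the 2 Ppard states did not pass for any of them (adjusted p = 0.14 for Acadvl, 0.75 for Slc25a20 and 0.39 for Eci2).

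Promoter windows of 3 genes that fell and are known PPAR targets, and of Apoc2, a lipoprotein gene that rose, are printed to show AGGTCA near their starts. The 4 were chosen because their windows hold it; those of Slc25a20 and Eci2, which also fell, do not. Each runs from 250 bases before to 50 after the gene start, on the gene's own strand (RefSeq, GRCm38.p6); capitals mark AGGTCA on either strand (TGACCT on the other), and in Apoc2 also the paired form, which is 2 copies of AGGNCA with 1 base between them.
Acadvl: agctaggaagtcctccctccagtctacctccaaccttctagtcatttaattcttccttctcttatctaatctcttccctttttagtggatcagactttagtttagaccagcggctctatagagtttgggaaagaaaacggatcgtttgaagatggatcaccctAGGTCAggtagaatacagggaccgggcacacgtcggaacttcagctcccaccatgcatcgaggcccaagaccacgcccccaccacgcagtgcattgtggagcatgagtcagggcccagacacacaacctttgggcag
Cat: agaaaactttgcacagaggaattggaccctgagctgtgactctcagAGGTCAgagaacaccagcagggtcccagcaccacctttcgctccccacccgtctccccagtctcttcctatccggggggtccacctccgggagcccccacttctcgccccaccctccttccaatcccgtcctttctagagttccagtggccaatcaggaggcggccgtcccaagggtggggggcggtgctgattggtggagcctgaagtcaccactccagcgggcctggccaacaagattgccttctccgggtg
Plin2: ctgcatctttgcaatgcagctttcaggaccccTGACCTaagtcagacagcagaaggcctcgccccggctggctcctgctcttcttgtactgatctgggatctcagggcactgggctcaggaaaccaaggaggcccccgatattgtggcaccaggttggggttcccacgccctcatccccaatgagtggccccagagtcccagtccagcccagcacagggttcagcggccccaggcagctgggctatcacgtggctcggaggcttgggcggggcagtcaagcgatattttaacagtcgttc
Apoc2: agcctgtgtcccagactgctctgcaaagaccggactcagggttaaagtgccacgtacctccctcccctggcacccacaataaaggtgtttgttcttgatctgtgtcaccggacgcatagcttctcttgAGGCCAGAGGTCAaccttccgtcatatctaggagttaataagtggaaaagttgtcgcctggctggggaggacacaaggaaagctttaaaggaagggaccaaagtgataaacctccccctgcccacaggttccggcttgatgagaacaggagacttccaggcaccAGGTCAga
These windows are chr11:70015379-70015678, chr2:103485104-103485403, chr4:86670010-86670309 and chr7:19677892-19678191, all on the minus strand. A single AGGTCA lies 87 bases before the start of Acadvl, 204 before that of Cat and, on the opposite strand, 218 before that of Plin2. None of these 3 windows holds the paired form. Apoc2 has the paired form 122 bases before its start, overlapping an AGGTCA, and another AGGTCA after the start. Of all 32851 promoter windows 16.3% held AGGTCA and 0.381% held the paired form. Among genes with a window, AGGTCA was present in 7 of 28 oxidation genes (25%) and 6 of 22 enterocyte and lipid uptake genes (27.3%). It was present in 29 of 169 called lower (17.2%), 31 of 182 called higher (17.0%) and 716 of 4525 tested (15.8%). The paired form was present in 0 of the 28 oxidation genes, 2 of the 22 (Apoc2 and Fabp1) and 16 of the 4525 (0.354%). A match is a description of letters and says nothing on binding in these cells.

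Genes of absorptive enterocytes were higher together in Ppara-null cells. Of 19 tested enterocyte markers 16 rose and none fell, beside 4.79% of all tested genes called higher, and the median log2 fold change was 1.46. Of 14 tested genes of lipid uptake and lipoprotein assembly 9 rose and none fell, with a median of 0.79; some genes stand in both lists. Summed over the enterocyte list, Ppara-null libraries had 3504 to 11743 CPM with a median of 5157 CPM, against 3399 to 6399 CPM with a median of 4028 CPM in Ppara-intact libraries. The part of a different share of enterocytes in the sorted cells in this result was not tested.

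Apoa1, the main apolipoprotein of high-density lipoprotein, had 11.2, 158 and 757 CPM in Ppara-null libraries, against 20.5, 33.4 and 76.2 CPM in Ppara-intact libraries. The 12 Ppara-null libraries other than PparA of runs 1 and 3 had 102 to 757 CPM and all exceeded the highest Ppara-intact library, while those 4 PparA libraries had 11.2 to 49.5 CPM. The log2 fold change was 2.41 ± 0.36 over all 32 libraries (edgeR adjusted p = 1.6e-05). The neighbouring genes Apoa4, which coats chylomicrons, and Apoc3, which slows their clearance, rose by 2.83 ± 0.46 and 2.33 ± 0.33, and Apoc2, the activator of lipoprotein lipase, rose by 1.97 ± 0.34. Rbp2, the retinol carrier of enterocytes, rose by 2.38 ± 0.37. Dgat1, which makes triglyceride and lies within 10 Mb of Ppara, rose by 0.85 ± 0.22.

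Brush border enzymes rose with them. Sis, the sucrase-isomaltase that marks mature enterocytes, had 3.21, 64.0 and 203 CPM in Ppara-null libraries, against 0, 9.21 and 22.1 CPM in Ppara-intact libraries. Its levels were 40.1 to 203 CPM in 12 Ppara-null libraries and 3.21 to 7.47 CPM in the 4 PparA libraries of runs 1 and 3, and the log2 fold change was 2.55 ± 0.42. Lct, or lactase, rose by 2.98 ± 0.54, and Alpi, the intestinal alkaline phosphatase, by 2.63 ± 0.53. The ileal bile acid carrier Fabp6 rose by 2.74 ± 0.54 and the detoxifying transferase Gsta1 by 2.64 ± 0.53 (highest edgeR adjusted p of these 5 genes, 9.5e-04). Of 9 tested proximal genes 2 (Lct and Apoa4) and of 5 distal genes 1 (Fabp6) were called, all of them higher. The share of all tested genes called higher was 4.79%, and Lct and Apoa4 also stand in the enterocyte list. Without the 4 PparA libraries of runs 1 and 3, 4 proximal and 2 distal genes rose and none fell, beside 6.21% of all tested genes called higher.

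**Figure D4:**
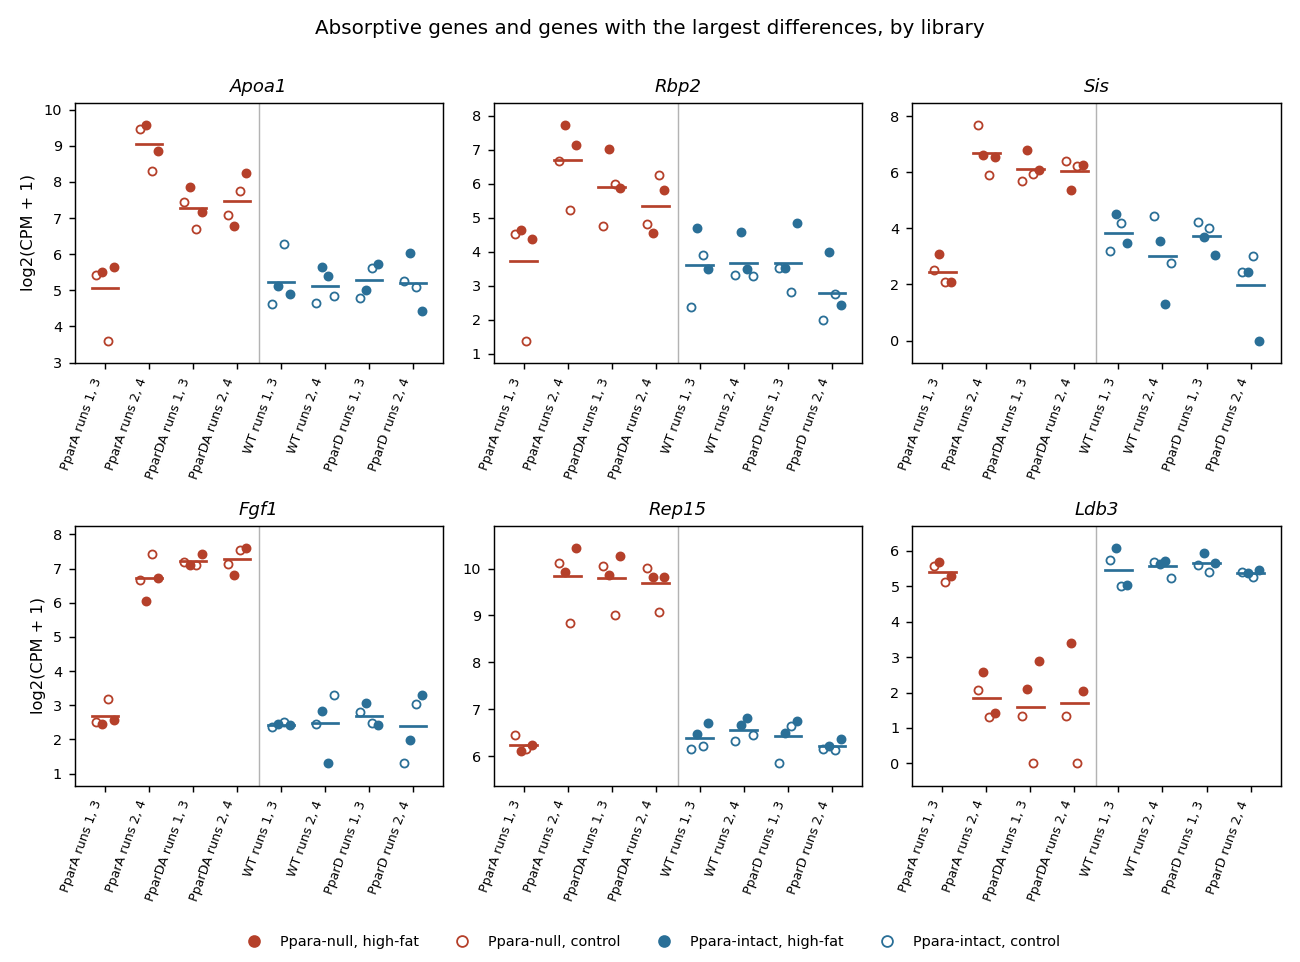
Level of 3 absorptive genes (Apoa1, Rbp2, Sis) and of Fgf1, Rep15 and Ldb3, as log2(CPM + 1), in each of the 32 libraries, by genotype and pair of runs, with Ppara-null groups left of the grey line and Ppara-intact groups right of it. Filled circles are high-fat and open circles control libraries, and bars are means of 4 libraries; the 4 PparA libraries of runs 1 and 3 lie at Ppara-intact levels of Sis, Fgf1, Rep15 and Ldb3, and the other 12 Ppara-null libraries do not.

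The enterocyte difference was not even across runs. The median log2 fold change of the 19 markers for PparA against WT was 2.35 in runs 2 and 4, with 16 called higher beside 3.15% of all tested genes. In runs 1 and 3 it was -0.21, with 0 called higher by edgeR beside 0.511% (1 of the 19 had an unadjusted p under 0.05). For PparDA against PparD it was 1.33 in runs 2 and 4 and 1.84 in runs 1 and 3, with 7 called higher in each beside 1.74%. The test of the difference between pairs of runs within Ppard-intact libraries called 7 of the 19 genes, beside 1.19% of all tested genes. Within Ppard-fl/fl libraries the edgeR test called 0 of the 19, with 2 at an unadjusted p under 0.05. Without the 4 PparA libraries of runs 1 and 3, 18 of the 19 markers rose beside 6.21% of all genes, with a median of 2.07, and 10 of the 14 lipid genes rose. These 4 were picked after their levels of such genes were seen. The larger difference without them and the difference between runs are therefore in part fixed by that choice. Runs 1 and 3 are also those with Xist counts. What lies behind the difference between pairs of runs was not tested.

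**Figure D5:**
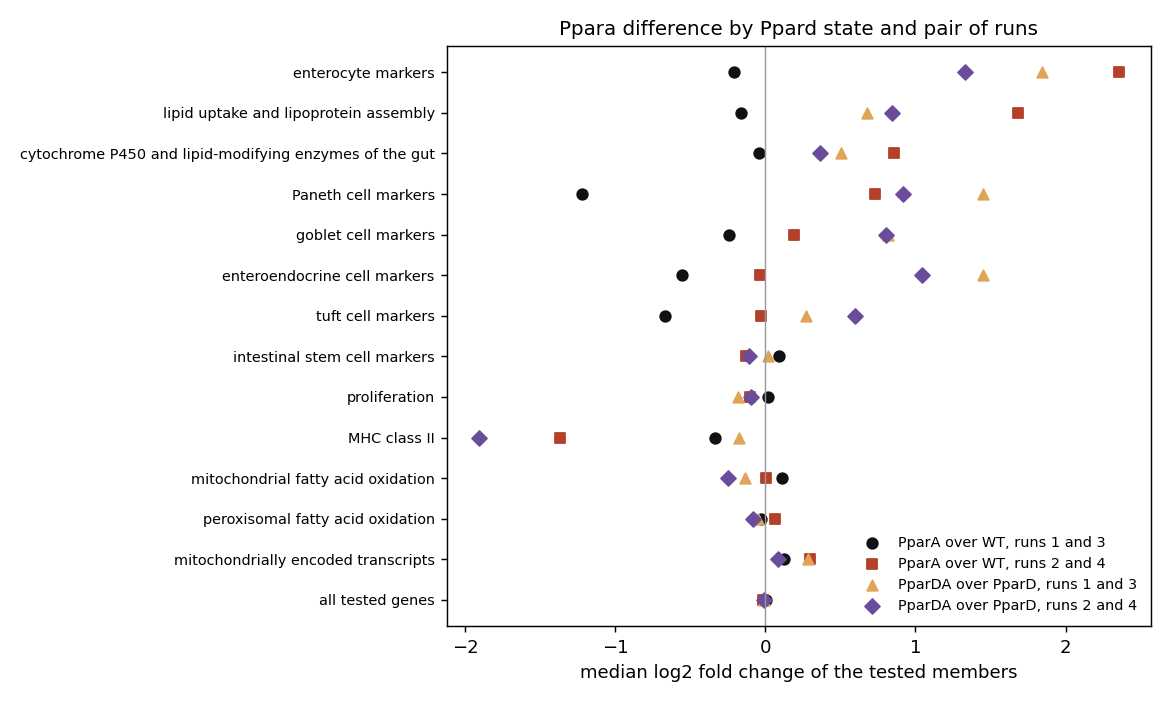
Median log2 fold change of the tested members of 13 gene lists and of all tested genes, for PparA over WT and PparDA over PparD in each pair of runs (4 libraries against 4 each). Enterocyte markers lie between 1.33 and 2.35 in 3 of the strata and at -0.21 for PparA over WT in runs 1 and 3, while all tested genes lie close to 0.

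Enzymes of the gut that act on lipids, retinoids and foreign compounds mostly rose. Of 15 tested members 10 rose and 2 fell, beside 4.79% of all tested genes called higher and 3.75% called lower. For PparA against WT the list's median was 0.86 in runs 2 and 4. In runs 1 and 3 it was -0.04, with 1 called higher and 1 lower, beside 0.732% of all tested genes called. For PparDA against PparD it was 0.36 in runs 2 and 4 and 0.50 in runs 1 and 3. Hsd17b13, a lipid droplet dehydrogenase, had 20.9, 33.8 and 63.7 CPM in Ppara-null libraries, against 5.50, 11.1 and 29.8 CPM in Ppara-intact libraries. Every Ppara-null library exceeded the Ppara-intact median, the 4 PparA libraries of runs 1 and 3 included, and the log2 fold change was 1.57 ± 0.19 (edgeR adjusted p = 5.2e-07). Cyp2c65, a fatty acid oxygenase of the gut, went the other way, with 11.5, 28.7 and 74.6 CPM in Ppara-null libraries and 40.4, 58.7 and 97.1 CPM in Ppara-intact libraries. Of the Ppara-null libraries 15 were below every Ppara-intact library, and the gene fell by 1.15 ± 0.15 (edgeR adjusted p = 1.6e-06). Cyp3a13 rose by 1.85 ± 0.34, and the sulfotransferase Sult1b1 by 0.55 ± 0.12.

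Secretory lineages showed smaller and less even differences. Of 13 tested goblet markers 5 rose and none fell, of 22 Paneth markers 4 rose and 1 fell, of 8 enteroendocrine markers 2 rose, beside 4.79% of all tested genes called higher and 3.75% called lower, and of 7 tuft markers 0 were called by edgeR, DESeq2 or limma (1 at an unadjusted edgeR p under 0.05). For PparA against WT in runs 1 and 3 the medians were -0.24 for goblet, -1.22 for Paneth and -0.55 for enteroendocrine markers, with 0 genes of these lists called by edgeR and 1, 12 and 2 at an unadjusted p under 0.05. Without those 4 PparA libraries 5 goblet, 9 Paneth and 3 enteroendocrine markers rose, beside 6.21% of all tested genes. In that fit 1 Paneth and 1 tuft marker fell, beside 4.67%. Zg16, a lectin that binds bacteria in mucus, had 14.5, 191 and 507 CPM in Ppara-null libraries, against 17.9, 55.1 and 189 CPM in Ppara-intact libraries. The ranges overlapped, 8 Ppara-null libraries were above all Ppara-intact libraries, and the rise was 1.61 ± 0.33. The mucus proteins Fcgbp and Clca1 rose by 1.18 ± 0.26 and 1.44 ± 0.36, and the kallikrein Klk1 by 0.55 ± 0.11.

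Among Paneth genes the α-defensins Defa17 and Defa29 rose by 0.88 ± 0.24 and 1.04 ± 0.30, while the list as a whole had a median of 0.41, and of 0.81 without the 4 PparA libraries of runs 1 and 3. Summed Paneth markers ran from 3341 to 47472 CPM in Ppara-null and from 2491 to 54489 CPM in Ppara-intact libraries. Mptx1, a pentraxin of Paneth cells, had 0, 39.9 and 286 CPM in Ppara-null libraries and 0, 1.45 and 10.4 CPM in Ppara-intact libraries, a log2 fold change of 4.57 ± 0.61. The related gene Mptx2 had a fall of 2.33 ± 0.54, which lay between -2.65 and -1.70 when a single library was left out. Defa35 and Defa27 rose by 4.75 ± 0.47 and 4.62 ± 0.28, with medians of 27.1 and 33.9 CPM in Ppara-null libraries and 0 and 0.726 CPM in Ppara-intact libraries. Defensins and pentraxins form families of closely related copies whose reads the counting may have split. Summed, Defa17, Defa29, Defa35 and Defa27 had 620 to 7577 CPM in Ppara-null and 408 to 5910 CPM in Ppara-intact libraries. The log2 ratio of means of that sum was 0.94. The summed pair of Mptx genes had medians of 39.9 CPM in Ppara-null and 23.6 CPM in Ppara-intact libraries.

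Of 7 tested antimicrobial and epithelial defence genes 4 rose, beside 4.79% of all tested genes called higher. Reg1 also stands in the enterocyte list. Reg1 and Reg3a, secreted lectins of the regenerating family, rose by 1.92 ± 0.39 and 1.65 ± 0.33, and Lypd8, which keeps flagellated bacteria from the epithelium, by 0.19 ± 0.056. The call for Lypd8 was lost with library size alone and with limma. Reg4, found in enteroendocrine and deep crypt secretory cells, rose by 0.80 ± 0.25, and Gip, an incretin hormone of enteroendocrine cells, by 1.34 ± 0.41. Their calls were lost when any of 15 libraries (Reg4, 0.67 to 0.94) or any of 12 (Gip, 1.02 to 1.5) was left out. The part of a different share of secretory cells in these results was not tested.

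The leading stem cell genes were not called. Olfm4 had 9309, 10170 and 13360 CPM in Ppara-null libraries, against 7270, 11300 and 13370 CPM in Ppara-intact libraries, a difference of -0.09 ± 0.058. Lgr5, the receptor that defines crypt base stem cells, had 30.5, 44.2 and 61.5 CPM in Ppara-null libraries and 28.8, 43.2 and 66.0 CPM in Ppara-intact libraries, a difference of 0.02 ± 0.11. Of 23 tested stem markers 3 fell and none rose, beside 3.75% of all tested genes called lower, with a median of -0.03. Without the 4 PparA libraries of runs 1 and 3, 5 fell, beside 4.67% of all tested genes. Prom1, a membrane glycoprotein of stem and transit cells, fell by 0.32 ± 0.073 (edgeR adjusted p = 0.0038). Tnfrsf19, a Wnt target receptor, fell by 0.60 ± 0.18, a call lost without the PparA control library of run 2 (-0.56) or the PparDA control library of run 3 (-0.53) or of run 4 (-0.52), and Cdk6, a G1 kinase, by 0.31 ± 0.095, lost without any of 18 (-0.35 to -0.27). Ascl2, the transcription factor of the stem cell state, differed by 0.34 ± 0.13 and was not called.

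Of 33 tested proliferation genes 24 were lower and 3 of these were called, beside 3.75% of all tested genes called lower, with a median of -0.09. Hmgb2, a chromatin protein of dividing cells, fell by 0.27 ± 0.066. The mitotic cyclins Ccnb1 and Ccnb2 fell by 0.24 ± 0.061 and 0.26 ± 0.083, and the call for Ccnb2 was lost without any of 24 libraries (-0.30 to -0.23). Without the 4 PparA libraries of runs 1 and 3 the list's median was -0.16 and 6 genes fell, beside 4.67%. Of 9 tested Wnt and Notch target genes 0 were called by edgeR, DESeq2 or limma, with 1 at an unadjusted edgeR p under 0.05.

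Some genes of antigen presentation fell. All 6 tested MHC class II genes were lower in Ppara-null cells, with a median of -0.84, but only H2-Ab1 passed the test, beside 3.75% of all tested genes called lower, with a fall of 1.14 ± 0.31. It had 4.77, 30.4 and 81.5 CPM in Ppara-null libraries, against 5.80, 76.3 and 186 CPM in Ppara-intact libraries, and the arms overlapped. H2-Aa, its α-chain partner, differed by -1.17 ± 0.41 (edgeR adjusted p = 0.076). Without the 4 PparA libraries of runs 1 and 3 all 6 were called lower, beside 4.67% of all tested genes, with a median of -1.40. Summed class II genes ran from 65.3 to 968 CPM in Ppara-null and from 106 to 1642 CPM in Ppara-intact libraries. For PparDA against PparD the list's median was -1.90 in runs 2 and 4 and -0.17 in runs 1 and 3, and for PparA against WT it was -1.37 in runs 2 and 4 and -0.34 in runs 1 and 3. The edgeR test of the difference between pairs of runs called 0 of the 6 genes, with 5 at an unadjusted p under 0.05 within Ppard-fl/fl and 2 within Ppard-intact libraries. Of 23 leukocyte markers 0 had enough counts to be tested; they summed to 5.97 to 108 CPM in Ppara-null and 5.83 to 21.5 CPM in Ppara-intact libraries, and their part in the result was not tested.

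Of 13 class I and immunoproteasome genes 3 fell and none rose, with 4 of the 13 higher and a median of -0.11, and of 12 interferon response genes 2 fell; the share of all tested genes called lower was 3.75%. Without the 4 PparA libraries of runs 1 and 3, 2 class I and immunoproteasome genes rose and 3 fell, beside 6.21% and 4.67% of all tested genes. H2-T23, a nonclassical class I molecule, fell by 0.46 ± 0.093, the immunoproteasome subunit Psmb9 by 0.53 ± 0.13 and the proteasome activator subunit Psme2 by 0.21 ± 0.05. The interferon-induced genes Irgm1 and Xaf1 fell by 0.34 ± 0.11 and 0.41 ± 0.13, and these calls were lost without any of 18 libraries (-0.38 to -0.28) and without any of 23 (-0.48 to -0.36). The call for Irgm1 was also lost without the 4 PparA libraries of runs 1 and 3 together (-0.32, edgeR adjusted p = 0.118).

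Transcripts encoded in the mitochondrial genome were higher. Of 15 such transcripts 9 rose and none fell, beside 4.79% of all tested genes called higher, with a median of 0.19, and together they made 146782 to 180746 CPM in Ppara-null and 127467 to 164112 CPM in Ppara-intact libraries. mt-Rnr2, the large ribosomal RNA of the organelle, had 6850, 9449 and 13150 CPM in Ppara-null libraries, against 4737, 7021 and 8653 CPM in Ppara-intact libraries. It rose by 0.41 ± 0.062 with 9 Ppara-null libraries above all Ppara-intact libraries. The small ribosomal RNA mt-Rnr1 rose by 0.42 ± 0.081, and mt-Nd2 and mt-Nd5, subunits of complex I, rose by 0.26 ± 0.040 and 0.26 ± 0.052.

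Of 71 nuclear-encoded respiratory chain genes 3 fell (4.23%), close to the 3.75% of all tested genes called lower, and their median was -0.03. Library size alone gave 5 and limma 6 such calls. Without the 4 PparA libraries of runs 1 and 3, 3 genes fell and 2 rose, beside 4.67% and 6.21% of all tested genes. Of 24 tricarboxylic acid cycle genes 3 fell. The complex IV subunits Cox6a1 and Cox6c fell by 0.34 ± 0.099 and 0.14 ± 0.041; the call for Cox6a1 was lost without the PparA high-fat library of run 2 (-0.31) and that for Cox6c without any of 6 (-0.15 to -0.12). Neither Cox6a1 (-0.32, edgeR adjusted p = 0.0636) nor Sdha (-0.20, adjusted p = 0.0843) was called without the 4 PparA libraries of runs 1 and 3. The succinate dehydrogenase subunits Sdha and Sdhd fell by 0.21 ± 0.063 and 0.15 ± 0.040, the call for Sdha being lost without any of 15 libraries (-0.23 to -0.17), and Pdhb, of the pyruvate dehydrogenase complex, fell by 0.26 ± 0.070. Of 12 tested glycolysis genes 2 rose and 1 fell, with 8 of the 12 higher and a median of 0.08; the gene that fell was Hk2, a hexokinase, by 0.45 ± 0.087. In the fit without the 4 PparA libraries of runs 1 and 3, 4 rose and 1 fell, beside 6.21% and 4.67% of all tested genes.

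Of 82 tested cytosolic ribosomal protein genes 2 rose and 8 fell, and of 74 mitochondrial ones 2 rose and 3 fell. The shares called were 12.2% and 6.76%, beside 8.53% of all tested genes. Rps15a fell by 0.79 ± 0.14, Rplp0 by 0.36 ± 0.070 and Rpl5 by 0.37 ± 0.067, while Mrps26, of the mitochondrial ribosome, rose by 0.89 ± 0.15. Reads of such genes may be split with processed pseudogenes. Of 104 tested pseudogenes 24 were called, 23 of them higher, and Rps15a-ps8 had a median of 70.5 CPM in Ppara-null and 0.734 CPM in Ppara-intact libraries. With Rps15a and Rps15a-ps8 summed, the pair still had 815 to 2049 CPM in Ppara-null and 1077 to 3600 CPM in Ppara-intact libraries, a log2 ratio of means of -0.70.

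Several genes outside these lists also differed by more than 1 on the log2 scale. Fgf1, a fibroblast growth factor, had 4.48, 124 and 192 CPM in Ppara-null libraries, against 1.46, 4.52 and 8.80 CPM in Ppara-intact libraries, a rise of 4.31 ± 0.37 (edgeR adjusted p = 2.9e-10). The 12 other Ppara-null libraries had 64.9 to 192 CPM and the 4 PparA libraries of runs 1 and 3 had 4.48 to 8.03 CPM, so only those 4 overlapped the Ppara-intact arm. Rep15, an endosomal Rab15 effector, followed the same split, with 460 to 1378 CPM in 12 Ppara-null libraries, 68.7 to 87.1 CPM in the 4 PparA libraries and 56.6 to 111 CPM in the Ppara-intact arm. Aldh1a3, which makes retinoic acid, had 30.8 to 67.4 CPM in the 12, 4.82 to 8.25 CPM in the 4 and 1.47 to 9.08 CPM in the Ppara-intact arm.

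In the other direction, Ldb3, a PDZ and LIM domain protein known from muscle, had 0 to 9.63 CPM in the 12 Ppara-null libraries, 33.7 to 50.8 CPM in the 4 PparA libraries and 31.1 to 66.2 CPM in the Ppara-intact arm, a log2 fold change of -1.97 ± 0.33 over all and of -3.82 without the 4. Pnp2, a purine nucleoside phosphorylase, had 0 to 3.21 CPM in the 12, 34.2 to 53.0 CPM in the 4 and 14.97 to 55.2 CPM in the Ppara-intact arm. Jaml, an adhesion molecule, had 3.01 to 406 CPM in the 12, 212 to 631 CPM in the 4 and 455 to 638 CPM in the Ppara-intact arm, so that 15 of 16 Ppara-null libraries were below all Ppara-intact libraries. Scn2b, a sodium channel subunit gene near Jaml and Apoa1 on chromosome 9, fell by 2.11 ± 0.31. In that stretch of 5 Mb 8 of 14 tested genes (57.1%) were called, beside 8.53% of all tested genes. By share called it ranked 2 among 238 stretches with at least 10 tested genes, and Apoa1, Apoa4 and Apoc3 are among the 8. Tmem116 and Gdpd3, a lysophospholipase D, rose by 3.39 ± 0.33 and 3.43 ± 0.44, each with 14 Ppara-null libraries above all Ppara-intact libraries, the PparA libraries of runs 1 and 3 at 3.3 to 44.8 and 10.9 to 14.9 CPM.

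Whether the effect of losing Ppara differed with diet or Ppard was tested across all genes. For diet 0 genes were called by edgeR, with 421 genes at an unadjusted p under 0.05, while DESeq2 called 3 and limma 0. For Ppard 5 genes (0.0851%) were called, with 395 at an unadjusted p under 0.05. Rps26 and its copy Rps26-ps1 had a Ppara difference that was 0.98 lower on the log2 scale in Ppard-fl/fl than in Ppard-intact libraries, and Add3, Styk1 and Gm45799 had differences that were 1.08, 1.51 and 7.68 higher. Gm45799 had a median of 0.783 CPM in Ppara-null and 1.45 CPM in Ppara-intact libraries. Reads of Rps26 and its copy cannot be told apart reliably.

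Within Ppard-fl/fl libraries 399 genes (6.79%) were called for PparDA against PparD, and within Ppard-intact libraries 122 (2.08%) for PparA against WT. These shared 81 genes, 20.3% of the fl/fl calls and 66.4% of the intact calls, and all 81 had the same direction. On the high-fat diet 237 genes (4.04%) were called and on the control diet 147 (2.5%), with 84 in both (35.4% and 57.1%), 83 of them in the same direction. Over all 32 libraries the edgeR test for a difference between pairs of runs called 0 of 5872 genes, with 368 at an unadjusted p under 0.05. Within Ppard-intact libraries such a test called 70 genes (1.19%), 48 with a higher and 22 with a lower Ppara difference in runs 2 and 4. Within Ppard-fl/fl libraries it called 0, and 275 had an unadjusted p under 0.05. Of the 501 genes called over all libraries, 388 (77.4%) had the same sign for PparA against WT in runs 1 and 3 alone, beside 63.5% of all tested genes; these libraries are among those on which the calls were made.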

How the data were processed

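RNA of sorted GFP-high intestinal stem cells was counted by high-throughput 3′ digital gene expression in 32 libraries. The build mm10 and the tools edgeR 3.30.2, Salmon 1.1.0 and R 4.0.2 are named, without their roles, per the submitters' processing notes; the use of molecular identifiers is not given there. The authors deposited expected counts per gene, already rounded to whole numbers, for 54418 identifiers, of which 54166 matched GENCODE M21. They also deposited log2(CPM + 1) values, which take each library to an equal total once returned to CPM. CPM in the text comes from the counts. Each count was divided by the library's total over tested genes times its TMM factor (0.938 to 1.07).

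Ppara-null was tested against Ppara-intact with edgeR 4.0.16 (quasi-likelihood, TMM, R 4.3.3) with Ppard state, diet and run as further factors, after filterByExpr over the 8 groups (minimum count 10, minimum total 15), which kept 5872 genes holding 97.1% to 97.7% of counts. A gene was called at a Benjamini-Hochberg adjusted p under 0.05. DESeq2 1.42.0 and limma 3.58.1, other scalings and filters, fits without the run block, and fits that left out libraries or runs were alternatives. The fits were tested on simulated data. Library totals were 612672 to 724155, which limits precision for low genes; counting intervals would cover counting error only. The common biological coefficient of variation was 17.8%.

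Libraries of the same run were treated as a block. Deviations from group means correlated by -0.0346 to 0.445 within a run (median 0.153) and by a median of -0.0709 between runs, and 31 of 32 libraries correlated best with their own run. The run is read from library numbers and is no stated day or litter.

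The members, the gene lists and the tests were chosen with earlier results of these data known. Named genes are, among called genes with at least 10 CPM in the higher arm and the same sign in all 4 matched pairs of groups (394 genes), the 15 largest rises and falls, called genes within 10 Mb of Ppara, 17 fixed genes, up to 4 genes of smallest p per list, and 5 of smallest p per interaction; the text names some of these 178 genes. Leaving out the 4 PparA libraries of runs 1 and 3, and the tests between pairs of runs, were chosen after seeing the data.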

Additional observations from a re-analysis of the deposited data

Results flagged for a closer look

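Genes whose Ppara difference was not the same in Ppard-fl/fl and Ppard-intact libraries, by the test of that difference, were Rps26 (-0.98 on the log2 scale), Rps26-ps1 (-0.98), Add3 (1.08), Styk1 (1.51) and Gm45799 (7.68). For 16 named genes the difference of PparA against WT was not the same in runs 2 and 4 as in runs 1 and 3, given here as the value in runs 2 and 4 minus that in runs 1 and 3. Absorptive genes were Apoa1 (4.16), Apoc2 (3.37), Sis (5.17), Dgat1 (1.93) and Gpt (3.16). Secretory and defence genes were Defa17 (1.88), Zg16 (2.54), Reg1 (3.48) and Reg4 (1.84). Other genes were Gpt (3.16), Mrps26 (1.23), Fgf1 (4.07), Rep15 (3.48), Aldh1a3 (2.94), Jaml (-4.63), Ldb3 (-3.91) and Pnp2 (-6.25).

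In the PparD high-fat group the summed enterocyte markers of a single library, at 3736 CPM, lay far from the other 3 libraries (4723 to 4836 CPM). Chance flags about 1 in 20 groups, and 8 groups were checked.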

How the results depend on the processing

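The count of 501 called genes stayed within 1.5 times under other scalings, DESeq2 (467), limma (517) and the fit with no replicate block (437), the pairing by run being read from library numbers. With a stricter filter it was 302 of 3028 tested genes, against 501 of 5872. Without run 2 it was 269 of 5906, without run 4 237 of 5889, and in runs 1 and 3 alone 82 of 5945. It was 109 of 5355 in Ppard-intact, 133 of 5381 in control-diet and 223 of 5334 in high-fat libraries alone. When each library was left out it was 433 to 547. The diet interaction called 0 genes, and 0 to 1 when each library was left out. With no filter it called 91 of 18306 genes, with DESeq2 3 and with a robust prior 2. It called 1 each in runs 1 and 3 alone, in runs 2 and 4 alone and without the 4 PparA libraries. The Ppard interaction called 5 genes, also with no replicate block, and 2 to 11 when each library was left out. With no filter it called 132 of 18306 genes, with a stricter filter 3 of 3028 and with DESeq2 11. It called 2 without run 1, 3 without run 2 and 2 without run 4. In runs 1 and 3 alone it called 65, and in runs 2 and 4 alone 3. Of 88 genes followed that were called over all libraries, not all had a value in every fit. In runs 1 and 3 alone 62 of 85 lost their call, and in runs 2 and 4 alone 22 of 88. Without run 2 it was lost for 29 of 87 and without run 4 for 30 of 85. In Ppard-intact libraries alone 50 of 81 lost it, and in Ppard-fl/fl libraries alone 18 of 81. In control-diet libraries alone 41 of 82 lost it, and in high-fat libraries alone 38 of 82. Without the 4 PparA libraries 5 of 88 lost it and 4 others gained one. Among these genes and alternatives only Rps26 changed sign, with a log2 difference of -0.133 in Ppard-fl/fl libraries alone against 0.35 over all (0.20, edgeR adjusted p = 0.264, without the 4 PparA libraries); the causes of the changes in counts were not tested, beyond fewer genes or libraries entering a fit. Low counts left Ppara, Ppard, Pdk4 and Cyp4a10 untested.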
